A study of Rattus norvegicus with 9 samples.

Results

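The spinal interneuron transcription factors described here are Pax2, Lhx1, Lhx5, Lbx1, Tlx3, Lmx1b, En1, Evx1 and Sim1. They were chosen by name for their place in the specification of spinal cord interneurons, with earlier results of these data known. They make up 9 of the 30507 rows of the gene table, each on a single row with an Ensembl identifier that no other row carries, and every one of the 9 had counts in at least 1 library. The values come from bulk RNA sequencing of whole spinal cord tissue (T9-T11) of female wild-type Sprague-Dawley rats, 8 weeks old when obtained, at 35 days post-injury (dpi), with 3 rats in each of 3 groups. Sham rats, which the labels call normal and without treatment, had a laminectomy and no contusion according to the study's methods. SCI rats had a contusion injury of the cord at T10 and carried an electrode plug but no implanted electrode. SCI + SCS rats had the same contusion and an epidural electrode, through which spinal cord stimulation (SCS) was given at 10 kHz and 0.12 mA for 2 h per day from 1 to 35 dpi. Injured rats with an implanted electrode and no stimulation were not analysed here, so the implant and the stimulation cannot be told apart in these libraries.

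Interneurons are the local neurons of the spinal cord, and each class is set up in the embryo by a code of transcription factors, many of which stay on at a low level in the adult. Lbx1 marks the later-born dorsal neurons that settle in the dorsal horn, where touch, itch and pain signals arrive. Within them Pax2, Lhx1 and Lhx5 direct the inhibitory fate, in which GABA or glycine is the transmitter, while Tlx3 and Lmx1b direct the excitatory, glutamatergic fate. In the ventral cord En1 marks the inhibitory V1 neurons, Evx1 the commissural V0 neurons and Sim1 the excitatory V3 neurons, all of which belong to the circuits for locomotion.

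Library totals lay between 62844376 and 88358570 counts, so that 3 counts, taken as the smallest level the depth can show, correspond to between 0.034 and 0.0477 CPM (counts scaled to a library total of 1e+06). Such floors cover counting error only, since PCR copies of a molecule were counted with it. Markers of spinal cord tissue were present in every library. The summed level of 8 oligodendrocyte genes was between 17792 and 83454 CPM, and that of 15 pan-neuronal genes was between 1153 and 13006 CPM. There were 3 libraries that stood apart by markers of tissue outside the cord. In Sham replicate 2, 7 sensory ganglion genes summed to 314.2 CPM, against 10.6 to 26.6 CPM in the other 8 libraries. The 26.6 CPM was that of SCI + SCS replicate 3, and the rest had at most 11.9 CPM. Muscle genes, of which 9 of the 14 listed have a row, summed to 3786 CPM in SCI replicate 1 and 1136 CPM in SCI replicate 3, against 13.2 to 68.8 CPM in the other 7 libraries. Calls of the 9 genes that change when one of these libraries is left out are given with and without it.

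Of the 9 genes, 8 have an entry in the RefSeq promoter table (build GRCr8), Lhx5 being the one without. The 250 bases before the annotated start are shown for 4 of them, Pax2 and Lmx1b because an inhibitory and an excitatory gene had similar profiles, Evx1 because it fell most after injury, and En1 because it did not follow the others. Sequences are written 5′ to 3′ on the strand of the gene, and capitals mark a GC box, GGGCGG or its reverse complement CCGCCC.
Pax2, chr1:253565672-253565921, + strand: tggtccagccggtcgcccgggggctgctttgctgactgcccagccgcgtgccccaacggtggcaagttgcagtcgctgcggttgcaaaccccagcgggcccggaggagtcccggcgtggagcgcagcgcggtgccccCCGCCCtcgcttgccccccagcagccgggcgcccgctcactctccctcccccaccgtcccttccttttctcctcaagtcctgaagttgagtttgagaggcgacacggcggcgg
Lmx1b, chr3:37338558-37338807, - strand: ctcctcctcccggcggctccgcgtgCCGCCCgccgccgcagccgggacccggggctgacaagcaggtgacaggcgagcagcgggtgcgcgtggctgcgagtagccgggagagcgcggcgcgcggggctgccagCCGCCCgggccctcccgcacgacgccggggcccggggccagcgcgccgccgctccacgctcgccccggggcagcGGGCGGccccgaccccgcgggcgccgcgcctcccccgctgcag
En1, chr13:34303434-34303683, + strand: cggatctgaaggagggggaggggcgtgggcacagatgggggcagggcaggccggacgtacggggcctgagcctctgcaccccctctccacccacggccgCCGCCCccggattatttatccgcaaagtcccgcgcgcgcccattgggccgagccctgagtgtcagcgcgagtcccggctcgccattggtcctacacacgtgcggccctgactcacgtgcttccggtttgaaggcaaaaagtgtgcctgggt
Evx1, chr4:82746942-82747191, + strand: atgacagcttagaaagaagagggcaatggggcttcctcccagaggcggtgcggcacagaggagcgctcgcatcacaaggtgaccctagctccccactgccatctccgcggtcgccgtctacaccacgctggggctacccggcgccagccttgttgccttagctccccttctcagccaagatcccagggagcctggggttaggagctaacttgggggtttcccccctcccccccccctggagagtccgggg
A GC box stood in 6 of the 8 promoters, with 3 in Lmx1b, 2 in each of Lhx1 and Lbx1, and 1 in each of Pax2, Tlx3 and En1. Evx1 and Sim1 had none, and 30.5% of all 33469 promoters of this length held at least 1. The homeodomain core TAATTA, the E-box CAGCTG and the TATA box TATAAA, each searched on both strands, were in 0 of the 8, against 4.86%, 12% and 12.9% of all promoters. The share of G and C was 49.2% in Tlx3 and between 63.2% and 84.4% in the other 7, with a median of 51.2% over all promoters. These matches describe the letters of the window and nothing about which factors bind there. In the authors' files, whose build is mRatBN7.2, Pax2 lies on chromosome 1 from 243616606 to 243695321 and Lbx1 on the same chromosome from 244083873 to 244085690. Lmx1b lies on chromosome 3 from 16862195 to 16940899, and Evx1 on chromosome 4 from 81416590 to 81420967. Lhx1 and Tlx3 are both on chromosome 10, from 69396829 to 69403617 and from 17790053 to 17792207. Lhx5 is on chromosome 12 from 36126186 to 36134625, En1 on chromosome 13 from 31751545 to 31755943, and Sim1 on chromosome 20 from 53828364 to 53907212. All 9 are protein-coding genes there. By the files' family column 7 of them are Homeobox genes, Pax2 is a PAX gene and Sim1 a bHLH gene.

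The comparison of the SCI with the Sham group asks how the level of each gene differed in the chronically injured cord. Pax2, Lhx1, Lhx5, Lbx1, Tlx3, Lmx1b and Evx1 fell after injury, to between 5.01% and 33.5% of the Sham mean, and their SCI libraries all lay below their Sham libraries, as did those of 31.1% of all genes tested. En1 did not pass the test, and Sim1 was too low to be tested. The edgeR quasi-likelihood test covered 17822 genes that passed the filter on low counts, with p-values adjusted over all of them by the Benjamini-Hochberg method. Of the 9 genes 8 were tested, and 7 were differentially expressed genes (DEGs, |log2FC|>1 and an adjusted p under 0.05). All 7 were lower, 0 were higher, and of all genes tested 13.6% were lower and 13.4% higher DEGs. The median log2FC of the 8 was -1.99, against 0.02 over all genes tested. In bulk tissue, fewer cells of a type and less RNA per cell cannot be told apart.

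**Figure D1:**
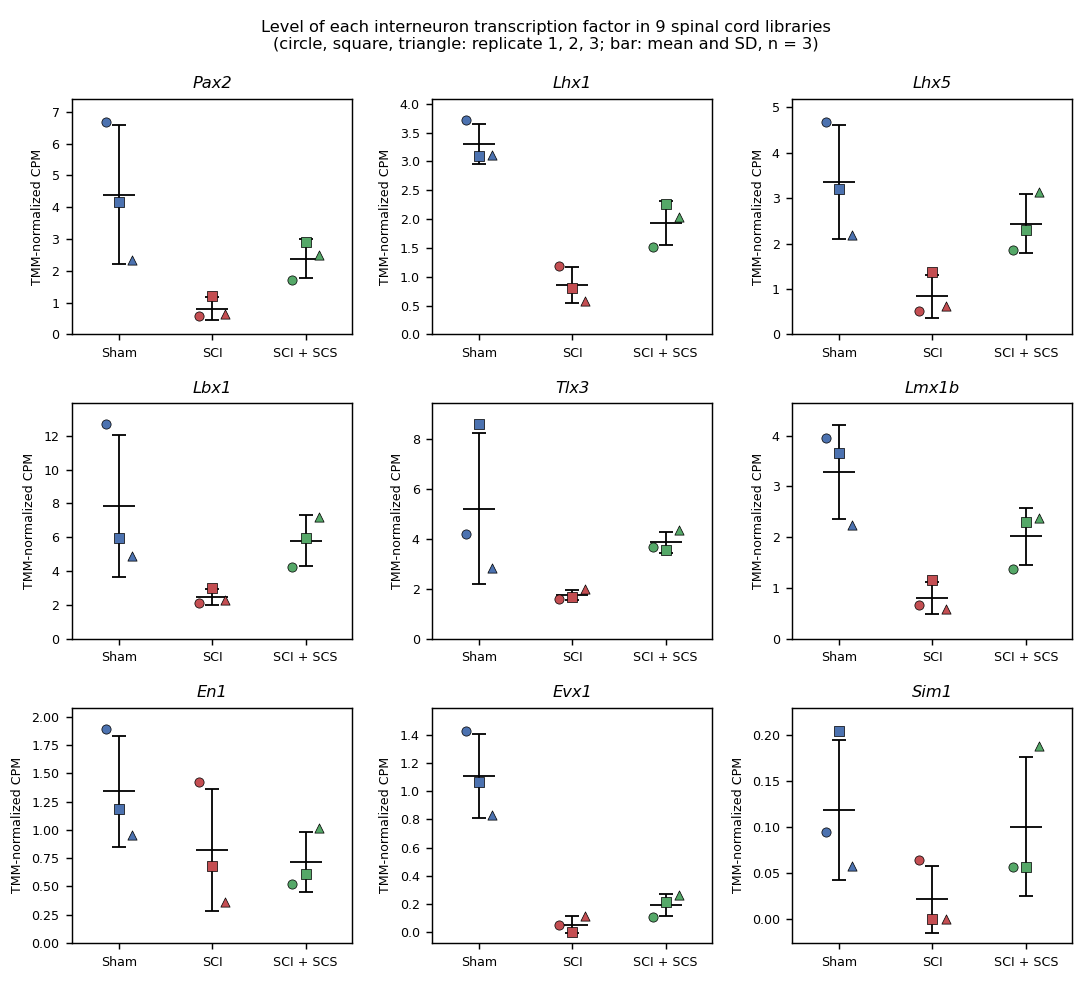
Level of each gene in each library, as CPM normalized by TMM on a linear axis, for the Sham, SCI and SCI + SCS groups. Points are libraries, with circles, squares and triangles for replicates 1, 2 and 3, and the bars give the mean and SD (n = 3). The 7 genes other than En1 and Sim1 have every SCI point below every Sham point.

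Pax2, a paired-domain factor needed for the inhibitory fate, had 6.67, 4.18 and 2.34 CPM in the Sham libraries, 0.571, 1.22 and 0.651 CPM in the SCI libraries and 1.71, 2.92 and 2.49 CPM in the SCI + SCS libraries. The SCI libraries were the 3 lowest, and the SCI + SCS libraries overlapped with Sham replicate 3 only. From Sham to SCI it fell by 2.45 on the log2 scale (standard error 0.50, adjusted p = 0.00805 by edgeR). Lhx1, a LIM homeodomain factor that maintains the inhibitory program, had 3.71, 3.09 and 3.12 CPM in the Sham libraries. Its SCI libraries had 1.19, 0.809 and 0.579 CPM, and its SCI + SCS libraries 1.51, 2.25 and 2.03 CPM. The 3 groups did not overlap for Lhx1, and its Sham libraries were the closest together relative to their mean of the 9 genes. Its log2FC between SCI and Sham was -1.96 (standard error 0.32, adjusted p = 0.00405). Lhx5, the close relative of Lhx1, had 4.68, 3.2 and 2.19 CPM in Sham, 0.52, 1.38 and 0.622 CPM in SCI and 1.87, 2.31 and 3.15 CPM in SCI + SCS. Again all SCI libraries were the lowest, while the SCI + SCS libraries lay within or just under the Sham range. For Lhx5 the log2FC of SCI against Sham was -2.02 (standard error 0.48, adjusted p = 0.0147).

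Lbx1, the homeodomain factor of dorsal horn neurons of both fates, had the highest CPM of the 9 genes in each group mean. Its Sham libraries had 12.7, 5.97 and 4.88 CPM, its SCI libraries 2.12, 2.98 and 2.29 CPM and its SCI + SCS libraries 4.21, 5.97 and 7.2 CPM. Sham replicate 1 stood far above the rest, and the SCI + SCS libraries lay below it, 1 of them below the whole Sham range. Lbx1 fell by 1.69 on the log2 scale after injury (standard error 0.40, adjusted p = 0.014 by edgeR).

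Tlx3, the selector of the glutamatergic fate, had 4.18, 8.62 and 2.85 CPM in the Sham libraries, 1.58, 1.67 and 1.98 CPM in the SCI libraries and 3.69, 3.56 and 4.35 CPM in the SCI + SCS libraries. The highest value was that of Sham replicate 2, the library with the high sensory ganglion genes, and Tlx3 is also a gene of sensory ganglion neurons. Within the SCI + SCS group Tlx3 was highest in replicate 3, which had the highest ganglion sum of that group. With this library the fall was 1.60 on the log2 scale (standard error 0.42, adjusted p = 0.0208), and without it the log2FC was -1.03 (adjusted p = 0.0443). Tlx3 no longer passed without SCI replicate 1, 2 or 3, with adjusted p-values of 0.0626, 0.0644 and 0.0548. Lmx1b, the LIM homeodomain partner of Tlx3 in excitatory neurons, had 3.96, 3.65 and 2.23 CPM in Sham, 0.659, 1.16 and 0.593 CPM in SCI and 1.38, 2.3 and 2.38 CPM in SCI + SCS. Its SCI libraries were all below the other 6, and 2 of the SCI + SCS libraries were just above the lowest Sham library. From Sham to SCI Lmx1b fell by 2.04 on the log2 scale (standard error 0.38, adjusted p = 0.0062 by edgeR).

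Among the ventral genes, Evx1 had the largest fall of the 8 tested. There were 91, 94 and 72 counts in the Sham libraries, 4, 0 and 8 in the SCI libraries and 8, 15 and 17 in the SCI + SCS libraries. As CPM these are 1.43, 1.07 and 0.828 in Sham, 0.0507, 0 and 0.116 in SCI and 0.112, 0.213 and 0.266 in SCI + SCS, and the value of 0 in SCI replicate 2 allows a level of up to 0.0443 CPM. Every Sham library was far above all injured ones, while the SCI and SCI + SCS libraries overlapped. Its log2FC between SCI and Sham was -4.31 (standard error 0.85, adjusted p = 0.0073), a value that rests on 12 counts in the SCI group. En1 had 1.9, 1.18 and 0.955 CPM in Sham, 1.42, 0.681 and 0.362 CPM in SCI and 0.519, 0.61 and 1.02 CPM in SCI + SCS. The 3 groups overlapped, with SCI replicate 1 and SCI + SCS replicate 3 within the Sham range. The log2FC was -0.72 (standard error 0.55, adjusted p = 0.308), and without SCI replicate 1, the library with the most muscle RNA, it was -1.38 (adjusted p = 0.0716). Sim1 had 6, 18 and 5 counts in the Sham libraries, 5, 0 and 0 in the SCI libraries and 4, 4 and 12 in the SCI + SCS libraries, and no comparison is made of it.

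The number of calls after injury depended on single libraries. Without SCI replicate 3 it was 4 of the 9, namely Pax2, Lhx1, Lmx1b and Evx1. Leaving out Sham replicate 2 and SCI replicate 1 together, an alternative added after the data were seen, left Lhx1 as the only call (1 of 9), with log2FC values of the other tested genes still below 0.

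Stimulated and unstimulated injured rats were compared to ask whether the levels differed under stimulation. Pax2, Lhx1, Lhx5, Lbx1, Tlx3 and Lmx1b were between 2.21 and 2.92 times as high in the SCI + SCS mean as in the SCI mean, with every SCI + SCS library above every SCI library, but none of them passed the adjusted test. The En1 libraries of the 2 groups overlapped. Of 17663 genes tested by edgeR, which included 7 of the 9, 0 of the 9 were DEGs, and 0.00566% of all genes were DEGs that were higher. At an unadjusted p under 0.05 with |log2FC|>1, 6 of the 9 passed and all 6 were higher, against 3.03% of all genes tested. The groups did not overlap for these 6, as for 15.6% of all genes tested in that direction. DESeq2, the tool of the study's methods, called the same 6 as higher DEGs, against 2.44% of the genes to which it gave an adjusted p. The median log2FC of the 7 tested was 1.24, against -0.01 over all genes.

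Among the inhibitory genes, Pax2 had a log2FC of 1.55 (standard error 0.38, adjusted p = 0.0918 by edgeR and 0.00348 by DESeq2). Lhx5 was similar at 1.55 (standard error 0.43, adjusted p = 0.106 by edgeR), and Lhx1 had 1.18 (standard error 0.34, adjusted p = 0.112). Lbx1 had a log2FC of 1.24 (standard error 0.25, adjusted p = 0.08). Of the 9 genes Tlx3 had the smallest adjusted p, at a log2FC of 1.16 (standard error 0.20, adjusted p = 0.0719 by edgeR and 2.41e-05 by DESeq2). For Lmx1b the log2FC was 1.33 (standard error 0.37, adjusted p = 0.107). The 6 log2FC values thus lay between 1.16 and 1.55. En1 had -0.20 (standard error 0.54, adjusted p = 0.858), and 0.45 without SCI replicate 1. Evx1 and Sim1 did not pass the filter on low counts in this comparison, with 40 Evx1 counts in the SCI + SCS group and 12 in the SCI group. This comparison uses the same SCI libraries as the one with the Sham group, so a low SCI value moves both in opposite directions.

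The third comparison, of the SCI + SCS with the Sham group, asks how far the stimulated injured cord was from the uninjured one. Evx1 was the only one of the 9 to pass both thresholds, at 17.8% of the Sham mean. The means of the other 7 tested genes were all lower than in Sham, between 53.2% and 74.1%, and 6 of the 7 overlapped with the Sham libraries. Without overlap and lower were 26.2% of all genes tested. Evx1 fell by 2.48 on the log2 scale (standard error 0.42, adjusted p = 0.00985 by edgeR). Lhx1 passed the adjusted p (0.0381) but not the fold threshold, at -0.77 on the log2 scale with a standard error of 0.22 and no overlap between its groups, and did not pass without Sham replicate 2 (adjusted p = 0.0868). That makes 1 lower DEG among the 8 tested, where 5.44% of the 17640 genes tested were lower DEGs, and 2 with an adjusted p under 0.05, where 16.2% were lower at that threshold. The Sham libraries are the same as in the comparison with the SCI group. Pax2 had -0.89 (adjusted p = 0.139), Lmx1b -0.70 (adjusted p = 0.134) and En1 -0.90 (adjusted p = 0.121). Lhx5, Lbx1 and Tlx3 had log2FC values of -0.46, -0.43 and -0.43, with adjusted p-values of 0.327, 0.426 and 0.432. Tlx3 changed sign to 0.14 without Sham replicate 2, and Lbx1 to 0.10 without Sham replicate 1. Pax2 passed both thresholds without Sham replicate 3 (log2FC -1.19, adjusted p = 0.0328).

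**Figure D2:**
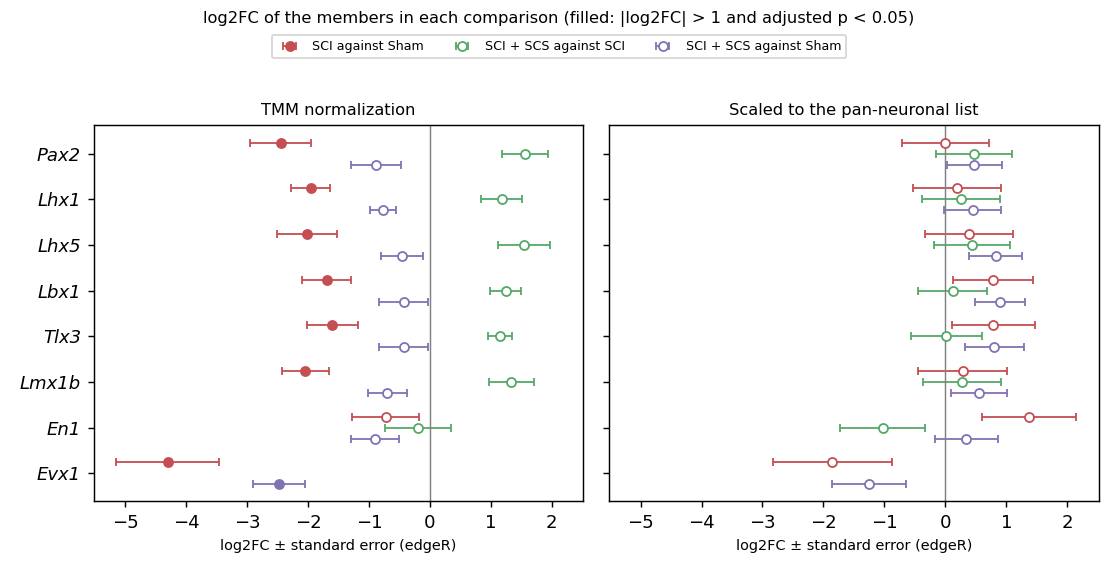
The log2FC of each tested gene with its standard error in the 3 comparisons, with TMM normalization on the left and with the libraries scaled to 15 pan-neuronal genes on the right (edgeR). Filled points are DEGs. On the left 7 points of SCI against Sham and 1 of SCI + SCS against Sham are filled, and on the right 0.

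Levels can be compared between genes only per length, as FPKM, the authors' values corrected for gene length and depth. In the Sham group the order was Lbx1 with 5.37 ± 2.79 FPKM (SD, n = 3), Tlx3 with 4.8 ± 2.89, Pax2 with 2.43 ± 1.19, Lhx5 with 1.42 ± 0.512 and Lmx1b with 1.25 ± 0.352. Lhx1 followed with 0.779 ± 0.0688 FPKM, En1 with 0.726 ± 0.256, Evx1 with 0.382 ± 0.0989 and Sim1 with 0.0119 ± 0.00856. Neighbours in this order overlapped, apart from En1 and Evx1, and Evx1 and Sim1. After injury Lbx1 (1.7 ± 0.424 FPKM) and Tlx3 (1.6 ± 0.299 FPKM) were still the highest and no longer overlapped with Pax2 (0.449 ± 0.226 FPKM), the third. En1, which was below Lhx5, Lmx1b and Lhx1 in the Sham group, was above them in the SCI group with 0.429 ± 0.248 FPKM, and overlapped with its neighbours there. In the SCI + SCS group the order was again that of the Sham group, from Lbx1 (4.09 ± 1.06 FPKM) to Sim1 (0.0103 ± 0.00728 FPKM).

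Pan-neuronal genes, which serve every class of neuron, also fell in the injured cord, with a median log2FC of -2.16. Pax2, Lhx1, Lhx5, Lbx1, Tlx3 and Lmx1b had between -2.45 and -1.60. The 15 pan-neuronal genes summed to 13006, 8407 and 6273 CPM in the Sham libraries, 3092, 1894 and 1153 CPM in the SCI libraries and 3036, 3474 and 4844 CPM in the SCI + SCS libraries. All 15 were lower DEGs in SCI against Sham. Between SCI + SCS and SCI 0 of the 15 were DEGs by edgeR and 5 by DESeq2, with a median log2FC of 0.94, and in SCI + SCS against Sham 10 were lower DEGs, or 4 without Sham replicate 2. With the libraries scaled to the summed counts of this list in place of TMM, none of the 8 tested transcription factors passed in SCI against Sham. Pax2 then had a log2FC of 0.00 (0.002747, standard error 0.72), Lhx1 0.19, Lmx1b 0.29, Lhx5 0.39, and Lbx1 and Tlx3 0.78 each. This scaling moves the median of all genes to 2.30. A value near 0 thus stands for a change of about the size of that of the summed neuronal counts. Genes with high counts weigh most in this sum, with mean Sham levels of 1680 CPM for Snap25 and 76.0 CPM for Rbfox3. By TMM the log2FC of the 15 genes ranged from -3.74 to -1.29, so the scaled values depend on the genes summed. For SCI + SCS against SCI the same 6 transcription factors had between 0.02 and 0.47 on this scale, with the median of all genes at -1.07.

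On the scale of the pan-neuronal list, En1 had the highest and Evx1 the lowest log2FC of the 8 tested genes in SCI against Sham. Neither passed the test. En1 amounted to 0.0146%, 0.014% and 0.0152% of the summed neuronal CPM in the Sham libraries, to 0.0459%, 0.0359% and 0.0314% in the SCI libraries and to 0.0171%, 0.0175% and 0.021% in the SCI + SCS libraries. The 3 groups did not overlap, with SCI highest, and how many of all genes do so on this scale was not counted. In the fit scaled to the list, the log2FC of En1 was 1.37 in SCI against Sham (standard error 0.78, adjusted p = 0.0893), which did not pass, and -1.03 in SCI + SCS against SCI (adjusted p = 0.193). The median log2FC of all genes on this scale was 2.30 and -1.07 in these comparisons. En1 thus rose less than the median gene after injury, and differed about as much as it in SCI + SCS against SCI. Lbx1 and Tlx3 had 0.78 each in SCI against Sham, with standard errors of 0.66 and 0.68. In SCI + SCS against Sham, with the median of all genes at 1.21, En1 had 0.35 (adjusted p = 0.556 by edgeR). That was below Pax2, Lhx1, Lhx5, Lbx1, Tlx3 and Lmx1b, which had between 0.45 and 0.90. Evx1 amounted to between 0.011% and 0.0132% in Sham, between 0% and 0.01% in SCI and between 0.0037% and 0.00612% in SCI + SCS. Its Sham libraries were above all others. On this scale its log2FC was -1.85 in SCI against Sham (standard error 0.98, adjusted p = 0.0697) and -1.26 in SCI + SCS against Sham (adjusted p = 0.0786). Pax2 per neuronal RNA was lowest in SCI replicate 1 (0.0185%), as were Lhx5 (0.0168%), Lbx1 (0.0685%) and Lmx1b (0.0213%), while En1 was highest in that library. SCI replicate 1 had the largest neuronal sum of its group and the most muscle RNA, and whether either has a part in these values was not tested.

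**Figure D3:**
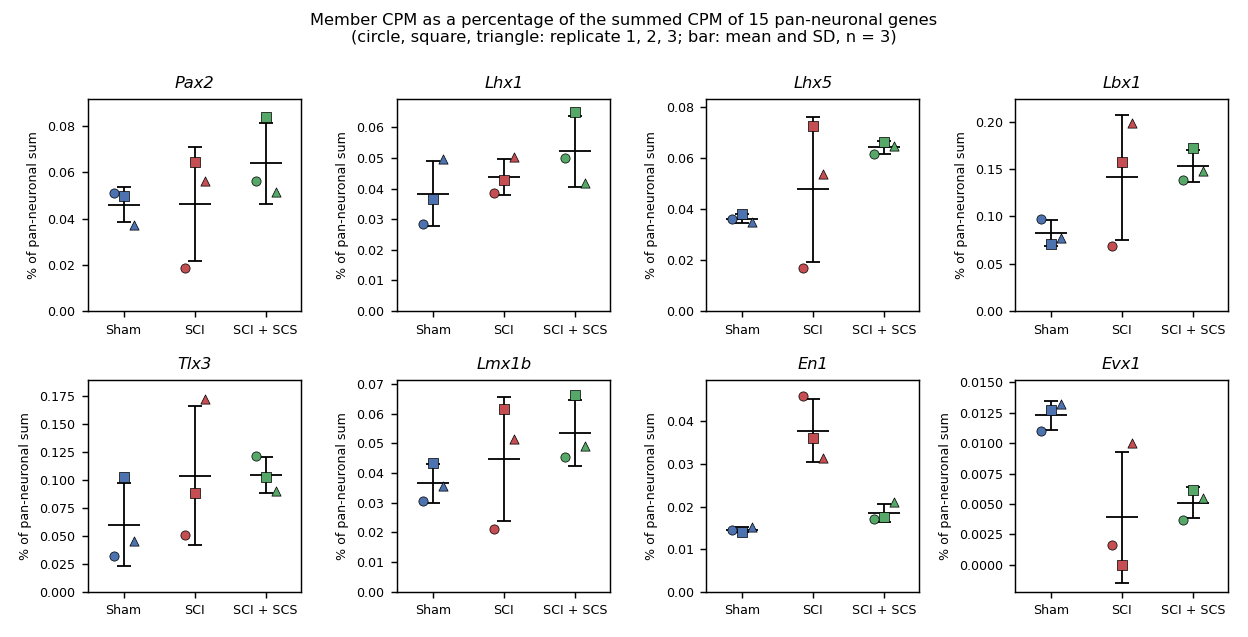
CPM of 8 of the genes as a percentage of the summed CPM of 15 pan-neuronal genes, per library and group, with circles, squares and triangles for replicates 1, 2 and 3 and bars for the mean and SD (n = 3). En1 is higher in the 3 SCI libraries than in all others, and Evx1 is higher in the 3 Sham libraries than in all others. In the fit scaled to this list, the median log2FC of all genes in SCI against Sham was 2.30, above that of En1 (1.37).

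The balance of inhibitory and excitatory genes was taken as the summed CPM of Pax2, Lhx1 and Lhx5 divided by that of Tlx3 and Lmx1b. In whole cord tissue this ratio is not limited to dorsal horn neurons, so it is not a balance within a single population. The ratio was 1.85, 0.853 and 1.5 in the Sham libraries, 1.02, 1.2 and 0.719 in the SCI libraries and 1.01, 1.28 and 1.14 in the SCI + SCS libraries. The groups overlapped, and the lowest Sham value was that of Sham replicate 2, in which Tlx3 was high. The ratio of Pax2 to Lmx1b alone, which leaves Tlx3 out, was 1.68, 1.14 and 1.05 in Sham, 0.865, 1.05 and 1.1 in SCI and 1.24, 1.27 and 1.05 in SCI + SCS, also with overlap. Differences between group means of the first ratio, on the log2 scale, were -0.48 from Sham to SCI and 0.25 from SCI to SCI + SCS, smaller than the SD of the more variable group in each (0.58 and 0.38). Leaving out each library in turn, the first difference lay between -0.80 and -0.24. The ratio was not tested, being a score over the chosen genes.

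The transmitter genes of the same neurons were also lower after injury. All 4 inhibitory genes were lower DEGs in SCI against Sham. Gad1 and Gad2, the enzymes that make GABA, had log2FC values of -1.75 (adjusted p = 0.00494) and -3.50 (adjusted p = 0.00411). Slc32a1, the vesicular transporter of GABA and glycine, had -2.43 (adjusted p = 0.00287), and Slc6a5, the glycine transporter of glycinergic neurons, had -3.31 (adjusted p = 0.00142). Of the vesicular glutamate transporters, Slc17a6, the main one of spinal excitatory neurons, had -2.25 (adjusted p = 0.00191) and Slc17a8 had -2.60 (adjusted p = 0.0664), which did not pass by edgeR. Slc17a8 passed by DESeq2 (log2FC -2.64, adjusted p = 0.0336) and by edgeR without SCI replicate 1 (-4.36, adjusted p = 0.022). Slc17a7 had -5.44 (adjusted p = 0.0393) with overlapping groups and 19.4 CPM in Sham replicate 2, and did not pass without that library (log2FC -3.85, adjusted p = 0.124) or without SCI replicate 1 (adjusted p = 0.0892). With stimulation no transmitter gene differed from SCI as a DEG by edgeR. Slc6a5 had 1.31 (adjusted p = 0.08), Slc32a1 1.16 (adjusted p = 0.0872), Slc17a6 1.02 (adjusted p = 0.0861), Gad1 0.92 (adjusted p = 0.0876) and Gad2 1.68 (adjusted p = 0.15). Slc17a7 had 3.78 (adjusted p = 0.133) and Slc17a8 1.92 (adjusted p = 0.269). DESeq2 called Slc6a5, Slc32a1 and Slc17a6. Against Sham the SCI + SCS group was lower for Gad2 (-1.81), Slc32a1 (-1.26), Slc6a5 (-1.99) and Slc17a6 (-1.22), all DEGs, of which Slc6a5 and Slc17a6 passed without Sham replicate 2. The ratio of summed inhibitory to summed excitatory transmitter CPM was between 1.79 and 2.5 in Sham, between 1.81 and 2.15 in SCI and 1.95 in each of the 3 SCI + SCS libraries.

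A wider list of 81 other transcription factors of spinal interneuron classes, of which 79 have a row, held lower and higher DEGs after injury. Among the 63 tested in SCI against Sham, 20 (31.7%) were lower DEGs and 7 (11.1%) were higher DEGs, with a median log2FC of -0.72, against 13.6% and 13.4% of all genes tested. Without Sham replicate 2 these numbers were 15 and 4, against 11.5% and 10.2% of all genes tested. For SCI + SCS against SCI 59 were tested and 0 were DEGs by edgeR, with a median log2FC of 0.39. At an unadjusted p with the fold threshold 9 were higher and 0 lower, where 3.03% of all genes tested were higher. DESeq2 fitted 75 of the list and called 3, all higher, against 1.91% of all genes it fitted, with or without an adjusted p. In SCI + SCS against Sham 64 were tested, of which 3 (4.69%) were lower and 1 (1.56%) was a higher DEG. Of all genes tested there, 5.44% were lower and 6.28% higher DEGs, so these shares are not above those of all genes. Isl1, a factor of dorsal interneurons, motor neurons and sensory neurons, had 37, 211 and 30 counts in Sham, 3, 0 and 0 in SCI and 0, 0 and 28 in SCI + SCS (adjusted p = 0.00861 from Sham to SCI). Pou4f1, of dorsal excitatory and sensory neurons, had 38, 227 and 25 counts in Sham, 0, 6 and 0 in SCI and 0, 12 and 18 in SCI + SCS. Both were highest in Sham replicate 2, and without it Pou4f1 did not pass (log2FC -3.93, adjusted p = 0.0667) while Isl1 did (adjusted p = 0.0246). Within the SCI + SCS group both were highest in replicate 3, which had the highest ganglion sum of that group. Pou4f1 also did not pass without SCI replicate 1 (adjusted p = 0.0575). Olig3, of early dorsal progenitors, had 17, 18 and 14 counts in Sham, 0, 1 and 0 in SCI and 0, 0 and 1 in SCI + SCS (adjusted p = 0.00499). Prox1 had 3.04, 2.74 and 2.86 CPM in Sham and between 0.0579 and 0.241 CPM in SCI, a log2FC of -4.18 (adjusted p = 0.00182), with -2.59 in SCI + SCS against Sham (adjusted p = 0.00478).

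Among the higher genes of that list, Zic2 had a log2FC of 1.77 (adjusted p = 0.0239), Foxd3 1.72 (adjusted p = 0.0196) and Foxp2 1.28 (adjusted p = 0.0207), and without Sham replicate 2 neither Zic2 (adjusted p = 0.077) nor Foxp2 (adjusted p = 0.0732) passed. Foxd3 is a neural crest gene as well as a V1 gene, and the 5 Schwann cell genes summed to between 4298 and 6835 CPM in Sham and between 8541 and 12575 CPM in SCI. Fibroblast genes, 6 in number, summed to between 407.6 and 1914 CPM in Sham and between 3346 and 5052 CPM in SCI. The part of these cell types in the 3 genes was not tested. Over the other 105 tested Homeobox genes of the files' family column, a group added after the data were seen, 17 (16.2%) were lower and 13 (12.4%) higher DEGs in SCI against Sham, with a median log2FC of -0.30. Both shares are near those of all genes tested, 13.6% and 13.4%.

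Pax2 and Lmx1b, an inhibitory and an excitatory gene, had similar profiles over the 9 libraries. Likeness was measured as the root mean square difference of centred log2 CPM, where 0 would be the same profile, among 18077 genes. The 5 genes nearest to Pax2 were Hoxb9 (0.171), a homeobox gene of regional identity, Iqsec3 (0.183), an exchange factor of inhibitory synapses, LOC120098879 (0.184), Fam163b (0.195) and Fbxl16 (0.198). Nearest to Lmx1b were Gpr135 (0.138), Ntsr1 (0.151), a neurotensin receptor, Doc2b (0.151), a calcium sensor of exocytosis, B3gat1 (0.163) and Cdh8 (0.171), a cadherin. Between Pax2 and Lmx1b the difference was 0.247, which placed Lmx1b 15th in nearness to Pax2 and Pax2 50th in nearness to Lmx1b. Lhx5 was 18th from Pax2 at 0.261 and 43rd from Lmx1b at 0.243. Lbx1 stood at 0.4, Lhx1 at 0.528, Tlx3 at 0.655, En1 at 0.965 and Evx1 at 1.15 from Pax2. These values describe profiles over libraries that share groups and depth, and no test was made of them.

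**Figure D4:**
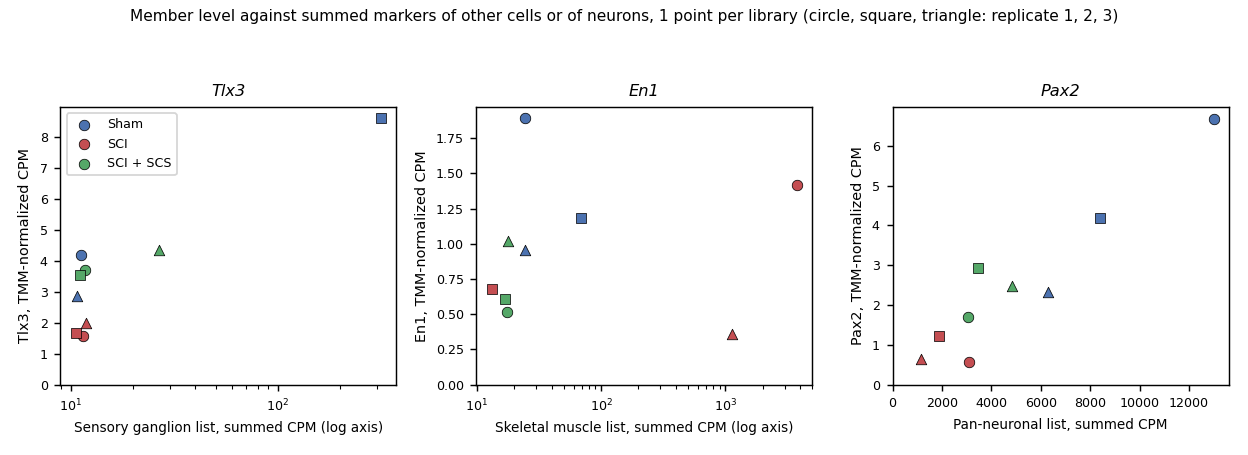
CPM of Tlx3, En1 and Pax2 in each library against the summed CPM of the sensory ganglion, skeletal muscle and pan-neuronal lists, with log axes for the first and second list. Points are libraries, coloured by group, with circles, squares and triangles for replicates 1, 2 and 3. Sham replicate 2 is at 314.2 CPM of ganglion genes and 8.62 CPM of Tlx3, and SCI replicate 1 at 3786 CPM of muscle genes and 1.42 CPM of En1.

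The plot of levels against marker sums shows the libraries with the highest ganglion and muscle sums, Sham replicate 2 and SCI replicate 1. Scn10a, a sodium channel of nociceptive ganglion neurons, had 4873 counts in Sham replicate 2 and between 7 and 215 in the other libraries. Mrgprd, a receptor of the same neurons, had 151 counts there and 0 in 5 of the others. Tlx3 in the SCI libraries was lower than in Sham replicates 1 and 3 too, in which the ganglion genes summed to 11.2 and 10.8 CPM, close to the 10.6 to 11.9 CPM of the SCI libraries. En1 was higher in SCI replicate 1 than in the other SCI libraries, and SCI replicate 3, with the second highest muscle sum, had the lowest En1 of all 9 libraries. The part of muscle RNA in the En1 values was not tested.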

How the data were processed

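Oligo(dT) beads were used to enrich mRNA from T9-T11 cord, and libraries were sequenced as paired ends on a DNBSEQ instrument in what the labels name as 1 batch. According to the submitters' processing notes the authors used fastp 0.23.2, HISAT2 2.2.1 and the build mRatBN7.2, and the counting program and annotation are not given in the sources used here. The authors deposited raw counts per gene and library, and FPKM values, scaled for the length of each gene and the depth of each library.

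The raw counts were tested by edgeR 4.0.16 (R 4.3.3) with TMM, filterByExpr and the quasi-likelihood method on the 6 libraries of each comparison, without covariates, with Benjamini-Hochberg adjustment over all genes tested. Standard errors were derived from F, as |log2FC| over the root of F. CPM were normalized by TMM over all 9 libraries. Alternatives were DESeq2 1.42.0, other filters, normalizations and scalings, all 9 libraries in a single fit, the replicate number as a block, summed rows of repeated identifiers, limma 3.58.1 on log2(FPKM + 1) and log2(FPKM + 0.1), and leaving out each library. The tests were checked on simulated counts. P-values measure the spread between the samples that the labels number as replicates. With 3 rats against 3, no exact permutation test reaches a p under 0.1.

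The 9 genes, the lists and the tests were chosen with earlier results of these data known. Named genes were the 9, all transmitter genes, of the other transcription factors the up to 4 called genes with the largest |log2FC| in each direction without overlap in SCI against Sham, and the 5 genes nearest in profile to Pax2 and to Lmx1b. Isl1 and Olig3 are given as counts without a fold, since their SCI groups had 3 counts or fewer. A gene that this rule would name is left out of the text. Scn10a and Mrgprd were named after their values were seen.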

Additional observations from a re-analysis of the deposited data

How the results depend on the processing

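Of the log2FC values of single genes, 377 values under alternatives kept direction and side of the threshold, 19 lost the call, 7 gained one and 17 changed sign.

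Scaling to the pan-neuronal list changed most. In SCI against Sham it gave 14691 DEGs, 0 of the 9 genes, and log2FC values of 0.002747 (Pax2), 0.1906 (Lhx1), 0.3891 (Lhx5), 0.7804 (Lbx1), 0.7835 (Tlx3), 0.2859 (Lmx1b), 1.373 (En1) and -1.854 (Evx1). In SCI + SCS against Sham it gave 10335 DEGs, 0 of the 9, and 0.4717 (Pax2), 0.4479 (Lhx1), 0.8242 (Lhx5), 0.8985 (Lbx1), 0.7998 (Tlx3), 0.5512 (Lmx1b), 0.3452 (En1) and -1.257 (Evx1). In SCI + SCS against SCI it gave 1899 DEGs. These values follow from the construction of the scaling, which sets the summed counts of the neuronal list to be equal between libraries.

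On log2(FPKM + 1), which compresses low values, SCI against Sham had 2649 DEGs, 3 of the 9, and lost Lhx1 (-0.5722), Lhx5 (-0.8213), Lmx1b (-0.777) and Evx1 (-0.4399) at the fold threshold. SCI + SCS against Sham had 921 DEGs and 0 of the 9, with Evx1 at -0.3684, and SCI + SCS against SCI had 20 DEGs. With a pseudocount of 0.1 the last had 19, and 5 without a filter. By FPKM, Lhx5 relative to the pan-neuronal list differed by 0.7362 (log2) between SCI + SCS and Sham.

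By DESeq2, SCI + SCS against SCI had 777 DEGs and 6 of the 9, with Pax2 at 1.55, Lhx1 at 1.169, Lhx5 at 1.546, Lbx1 at 1.239, Tlx3 at 1.149 and Lmx1b at 1.329. At an unadjusted p it had 988 and 6 of the 9. It had 0 DEGs with at least 10 counts in every library, with rows of an identifier summed and with the replicate block, against 1 in the main comparison. Without the fold threshold SCI against Sham had 8796 genes, and SCI + SCS against Sham 5710 and 2 of the 9. With at least 10 counts in every library, Evx1 was not tested and SCI + SCS against Sham had 0 of the 9.

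Replicate numbers are shared between groups but mark different rats. Correlations of same-numbered libraries lay between -0.22 and 0.146, and so few values cannot show whether these libraries share more than a number. With the replicate block SCI + SCS against Sham had 715 DEGs, 0 of the 9, and Evx1 at -2.491 (adjusted p = 0.0654 by edgeR).

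Leaving out each library in turn gave between 3908 and 5108 DEGs and 4 to 7 of the 9 in SCI against Sham, where Lhx5 ranged from -2.58 to -1.698, Lbx1 from -1.951 to -1.156 and Tlx3 from -1.902 to -1.035. In SCI + SCS against SCI the range was 0 to 123 DEGs, with En1 from -0.5567 to 0.4476. It was 950 to 2891 DEGs and 1 to 2 of the 9 in SCI + SCS against Sham, with Pax2 from -1.192 to -0.4519, Lbx1 from -0.6861 to 0.09936 and Tlx3 from -0.7286 to 0.1401. Leaving out SCI replicate 1 and Sham replicate 2 together, added after the data were seen, gave 3038 DEGs and 1 of the 9, with Pax2 at -2.289, Lhx5 at -1.802, Lbx1 at -1.761, Tlx3 at -0.9676, Lmx1b at -1.838 and Evx1 at -4.275 no longer called. That fit has 4 libraries.

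In SCI + SCS against SCI, the calls of 6 of the 9 genes depend on the tool, with none passing the adjusted test by edgeR and all 6 passing by DESeq2. Evx1 and Sim1 were near or below the depth limit after injury.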
